A study of Mus musculus with 10 samples.

Results

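Merkel cells were examined in dissociated back skin of mouse embryos at 2 embryonic stages, E15.5 and E17.5, named by days of gestation. They were chosen cell by cell from single-cell counts of unique molecular identifiers (UMIs, each counting 1 captured RNA molecule). The study's filter kept cells with more than 1000 but fewer than 6000 genes detected and with less than 10% mitochondrial UMIs, and it was applied first. A Merkel cell also had to hold at least 3 UMIs each of the simple keratins Krt8 and Krt18, at least 1 UMI of Atoh1 or Isl1, and fewer than 30 UMIs of Col1a1 and Col3a1 together. This rule found 69 Merkel cells among the 49816 kept cells of the E15.5 and E17.5 libraries, and 55482 cells were kept in the series as a whole. The levels of Krt8, Krt18, Atoh1, Isl1, Col1a1 and Col3a1 therefore chose the cells and are given as description.

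Merkel cells are touch receptor cells of the epidermis. They arise from Krt14-expressing epidermal progenitors, depend on the transcription factor Atoh1, and contact sensory nerve endings. Mature Merkel cells carry simple keratins, including Krt20, and dense-core granules with neuropeptides, and they sense force through the ion channel Piezo2. Sox2, Isl1, Pou4f3, Insm1 and Gfi1 are transcription factors of Merkel cells or of related mechanosensory and neuroendocrine cells.

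At E15.5 there were 2 control libraries (labels 2 and 3) and 2 MOF cKO libraries (labels 5 and 6), of genotype MOFfl/fl/K14Cre. MOF cKO 6 is a limited model of MOF loss, since its epidermis was a mosaic of cells with and without the H4K16ac mark, whereas the mark was lowered throughout in MOF cKO 5. For E17.5 a single control library stood beside a single QPC cKO library, of genotype QPCfl/fl/K14Cre, and 2 control and 2 MOF cKO libraries of E16.5 were used for the counts of cells only. MOF, encoded by Kat8, acetylates lysine 16 of histone H4, and QPC, encoded by Uqcrq, belongs to complex III of the respiratory chain. Controls were wild-type or heterozygous littermates on a mixed C57BL/6J and CD-1 background, and Krt14-Cre acts in the epidermis and in what descends from it, which includes Merkel cells but not dermal fibroblasts. The comparisons asked how many Merkel cells each library held, what they expressed, and how both differed with stage and with loss of MOF or QPC.

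Each of the 6 libraries held between 149503071 and 203392303 UMIs and kept between 5353 and 10653 cells. Merkel cells had a median depth of 7992 and 8359 UMIs in the E15.5 controls, and of 16648 UMIs in the control and 16564 in QPC cKO at E17.5. Any pair of libraries shared between 7 and 36 kept cell barcodes, and none of these was a Merkel cell. The libraries of the 2 stages also differed in 2 other ways. Xist, the RNA of the inactive X chromosome of females, stood at 2193 and 2324 counts per 1e6 UMIs (CPM) in the Merkel cells of the E15.5 controls, and at 0 and 1.42 CPM in the control and QPC cKO cells of E17.5. The same split was seen in other epithelial cells, with 1186 and 1122 CPM of Xist at E15.5 and 0.0711 and 0.115 CPM at E17.5. The haemoglobin gene Hbb-bs, a red blood cell gene, was counted at 1154 and 724 CPM in E15.5 control Merkel cells and at 0 and 1.42 CPM at E17.5, and in other epithelial cells at 9585 and 9650 CPM against 3.23 and 2.52 CPM. Stage, embryonic sex as read from Xist, haemoglobin RNA and depth per cell moved together and cannot be told apart.

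The targeted genes were checked next. Uqcrq (GRCm38, chr11:53427922-53430831, minus strand) was counted at 96.1 CPM (95% exact Poisson interval 48.0 to 172) in E17.5 control Merkel cells and at 11.3 CPM (4.90 to 22.4) in QPC cKO Merkel cells, and the intervals did not overlap. At least 1 Uqcrq UMI was found in 7 of 7 control cells and in 8 of 44 QPC cKO cells, each of the 8 with a single UMI. Other epithelial cells went from 133 to 37.3 CPM, and fibroblasts, which do not express Krt14-Cre, were at 69.2 CPM in control and 122 CPM in QPC cKO. Kat8 gave no UMI in any Merkel cell of E15.5, control or MOF cKO, so its loss was not detectable at this depth. In other epithelial cells Kat8 was at 13.2 and 14.1 CPM in controls and at 13.3 and 10.3 CPM in MOF cKO. These 3′ counts may lie outside the deleted part of the gene and then check nothing.

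Merkel cells were rare in every library, and 44 of the 69 came from the QPC cKO library. E15.5 control 2 held 7 and control 3 held 9, each MOF cKO library held 1, and the E17.5 control held 7. As a share of kept cells this was 0.0834% (95% exact binomial interval 0.0335 to 0.172) and 0.0987% (0.0451 to 0.187) in the E15.5 controls. It was 0.00982% (0.000249 to 0.0547) in MOF cKO 5 and 0.00939% (0.000238 to 0.0523) in MOF cKO 6. The E17.5 control had 0.131% (0.0526 to 0.269) and QPC cKO 0.719% (0.523 to 0.964). Intervals cover counting error only. The QPC cKO interval lay above those of all other E15.5 and E17.5 libraries, while the intervals of the MOF cKO libraries overlapped those of their controls.

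**Figure D1:**
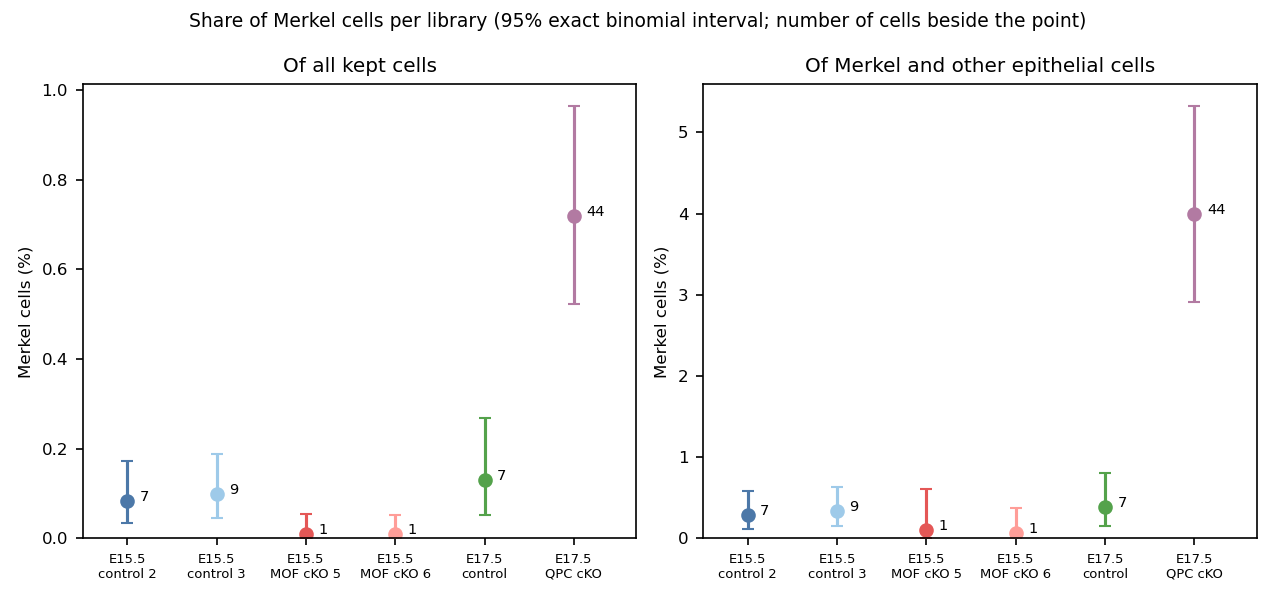
Merkel cells as a percent of kept cells (left) and of Merkel and other epithelial cells together (right) in each library, with 95% exact binomial intervals and the number of Merkel cells beside each point. QPC cKO stands at 0.719% and 3.99%, above the E17.5 control at 0.131% and 0.391%, and each MOF cKO library rests on 1 cell.

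The mean share at E15.5 was 0.0910% ± 0.0108 (SD, n = 2) in controls and 0.00961% ± 0.000309 (SD, n = 2) in MOF cKO. MOF cKO minus control was -0.0814 percentage points. Both MOF cKO libraries were below both controls, with an exact two-sided permutation p = 0.333, the smallest that 2 against 2 libraries allow. MOF cKO skin also held fewer epithelial cells. Other epithelial cells, defined here as kept cells outside the rule with at least 10 UMIs of Krt5 and Krt14 and fewer than 30 of the 2 collagens, numbered 2461 and 2703 in controls against 923 and 1496 in MOF cKO. Among Merkel and other epithelial cells together, Merkel cells were 0.308% ± 0.0341 (SD, n = 2) in controls and 0.0875% ± 0.0293 (SD, n = 2) in MOF cKO, again with an exact permutation p = 0.333. At E16.5 the rule found 3 cells in control 2 of 2447 kept cells, and 0 in control 1 of 1140 cells and in both MOF cKO libraries of 716 and 1363 cells. Read as at most 3 counts, a count of 0 allows shares of up to 0.263% in that control and up to 0.419% and 0.220% in the MOF cKO libraries, above the E15.5 control shares. Over both stages together the exact permutation p was 0.167, where 36 arrangements allow 0.0556 at the least.

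At E17.5, the share in QPC cKO exceeded that in the control by 0.588 percentage points, between 1 library each and without a replicate check. Of Merkel and other epithelial cells together, Merkel cells were 3.99% (2.92 to 5.32) in QPC cKO and 0.391% (0.158 to 0.805) in control, a ratio of 10.2. The denominators differed as well, with 1058 other epithelial cells in QPC cKO and 1781 in control. After thinning each cell to 8000 UMIs, 36 cells met the rule in QPC cKO and 7 in control, against 3 and 6 in the E15.5 controls and 1 in each MOF cKO library. The median mitochondrial share of Merkel cells ran from 4.84% to 6.76% of UMIs per library, and a limit of 5% in place of 10% left 4 cells in QPC cKO, 0 in its control, and 2, 0, 1 and 0 in E15.5 controls 2 and 3 and MOF cKO 5 and 6. The QPC cKO share was then 0.0914% (0.0249 to 0.234). At E15.5, MOF cKO minus control was then -0.0100 percentage points, and control 3 with 0 cells stood below MOF cKO 5.

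The cells just inside and outside the rule were counted. The lowest Krt8 count of a Merkel cell was 7 UMIs, and no otherwise eligible cell of QPC cKO had 1, 2, 3 or 4 Krt8 UMIs. For Krt18, QPC cKO held 3 Merkel cells at the minimum of 3 UMIs and 2 cells just under it at 2 UMIs. Cells with both keratins but neither Atoh1 nor Isl1 numbered 5 and 3 in the E15.5 controls, beside 7 and 9 Merkel cells, and 1 in each other library. The 5 cells of control 2 had a median of 4 Krt8 UMIs, and all 5 had at least 10 UMIs of Krt5 and Krt14. Cells with Atoh1 and under the collagen limit, but short of the minimum of Krt8, of Krt18 or of both, were counted too. They numbered 10 and 5 in the E15.5 controls, 0 and 3 in MOF cKO, 3 in the E17.5 control and 14 in QPC cKO. Cells with Isl1 and without Atoh1 were not counted here. Krt8 had library medians from 31 to 47 UMIs per cell, and Krt18 medians from 11 to 26. Atoh1 and Isl1 were both detected in 7 of 7 and 4 of 9 cells of the E15.5 controls and in 7 of 7 and 42 of 44 cells at E17.5. Atoh1 alone was detected in 4 cells of E15.5 control 3, in the cell of MOF cKO 5 and in 2 cells of QPC cKO.

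Genes outside the rule also set Merkel cells apart from keratinocytes, among them transcription factors, vesicle and granule genes. Compared with other epithelial cells of the same library, the 20 genes with the highest least ratio over 4 libraries included the transcription factors Pou4f3, Sox2, Insm1, Tlx3, Prox1 and Dach1, the simple keratin Krt7, the Notch ligand Dll3 and the long non-coding RNA Miat. Ccer2 (GRCm38, chr7:28756174-28758968, plus strand) had the highest ratio of the 20, at 22683 and 22869 CPM in the E15.5 controls, 75212 CPM in the E17.5 control and 54718 CPM in QPC cKO. Other epithelial cells of these 4 libraries held 9.97, 2.86, 2.18 and 81.9 CPM of it. A Ccer2 UMI was found in 68 of the 69 Merkel cells, with library medians from 149 to 1189 UMIs per cell, and in between 0.217% and 10.7% of other epithelial cells and between 0.0538% and 10.3% of fibroblasts. Other epithelial cells with 20 or more Ccer2 UMIs numbered from 0 to 4 per library.

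Pou4f3, a transcription factor of mechanosensory cells, was counted at 1299 and 1117 CPM in E15.5 controls, 1275 CPM in the E17.5 control and 749 CPM in QPC cKO, against 0.119 to 1.87 CPM in their other epithelial cells. It was detected in 7 of 7, 8 of 9, 7 of 7 and 43 of 44 Merkel cells, while at most 0.116% of fibroblasts in a library held a UMI. Sox2 ran from 620 to 868 CPM over the same 4 libraries and was found in 6 of 7, 9 of 9, 7 of 7 and 44 of 44 cells, against at most 11.3% of fibroblasts and 1.97% of other epithelial cells in a library. The 4 libraries did not separate by stage for either gene. Among the 20 genes, the log2 ratio to other epithelial cells (CPM + 10) was at least 3.72 in each library, the value of Slc4a4, a bicarbonate transporter, in QPC cKO.

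At the other end stood genes of keratinocytes. The 10 with the lowest ratios included Krt1, Krt10 and Krtdap, which mark differentiating keratinocytes, the stefin genes Cstdc5 and Stfa3, the water channel Aqp3 and the matrix gene Postn. Krt10 had log2 ratios between -3.68 and -3.24, and Krt1 between -4.29 and -3.52. Cstdc5 and Stfa3 belong to a family of near-identical copies, so that their reads can be split or shared.

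**Figure D2:**
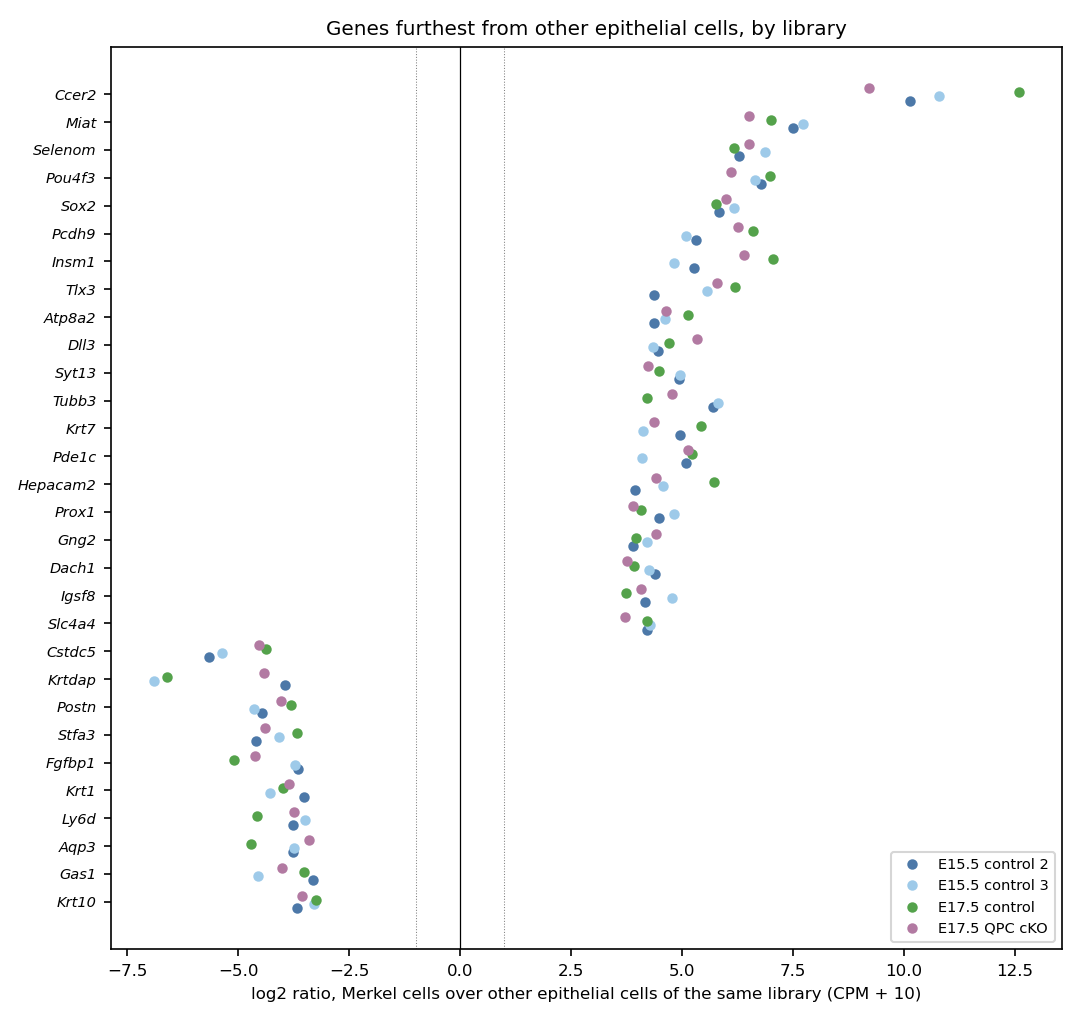
Log2 ratio of the level in Merkel cells over that in other epithelial cells of the same library (CPM + 10) for the 20 genes with the highest lowest value and the 10 with the lowest highest value, 1 point per library. The 20 upper genes lie at 3.72 or above in each of the 4 libraries, and Krt10 between -3.68 and -3.24; dotted lines mark a 2-fold ratio.

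A gene was called higher or lower in Merkel cells where the ratio passed 2-fold in the same direction in each of the 4 libraries with at least 5 Merkel cells. Of 22078 genes measured, 345 (1.56%) were higher and 409 (1.85%) lower. This is a description of 4 libraries and not a test. Of the 5 Merkel cell transcription factors not used by the rule, 4 were higher, Sox2, Pou4f3, Insm1 and Prox1, while Gfi1 had 43.3 and 0 CPM in the E15.5 controls and 140 and 61.0 CPM at E17.5. The median log2 ratio of these 5 was 5.84, against -0.01 over all genes. Of the 3 other simple epithelial keratins, Krt7 and Krt20 were higher and Krt19 gave 0 UMIs in both E15.5 controls and 2 and 5 UMIs in the control and QPC cKO of E17.5.

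Of 21 measured genes of synaptic vesicles and release, 10 were higher and 0 lower, with a median log2 ratio of 2.27. They included Snap25, a fusion protein, at 130, 102, 166 and 104 CPM in the 4 libraries, Syt7, a calcium sensor, Pclo, an active zone scaffold, and the vesicle GTPase gene Rab3c. The vesicular transporters of glutamate and monoamines, Slc17a6, Slc18a1 and Slc18a2, gave no UMI in the 4 libraries. Of 15 measured genes of secretory granules and neuropeptides, 5 were higher, the granins Chga and Chgb, Scg3, Scg5 and the peptide-processing enzyme Cpe. Vip gave no UMI, and Calca gave 12.7 CPM in E15.5 control 3 and 0 in the other 3 libraries.

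Of 13 measured genes for mechanosensation and ion channels, 2 were higher, Piezo2 and the calcium channel gene Cacna1a. Piezo2 was at 144 and 229 CPM in E15.5 controls, 358 CPM in the E17.5 control and 238 CPM in QPC cKO, and at 1.78 to 3.93 CPM in other epithelial cells. Piezo1 gave 1 UMI in all 69 cells together. Of 15 measured genes of the Notch pathway, which limits Atoh1-expressing cells in several tissues, Hes6 and Dll3 were higher and the receptors Notch1 and Notch2 lower. Of 11 hedgehog, Fgf, Eda and Bmp genes, 5 were lower, among them Fgfr2, Lef1, Sostdc1 and Edar. Among proliferation genes, 5 of 8 S phase genes and 6 of 8 G2/M genes were lower and none higher. Mki67 was at 28.9 and 0 CPM in E15.5 controls and at 8.73 and 21.3 CPM at E17.5, against 97.6 to 254 CPM in other epithelial cells.

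The promoters of the named genes were searched for the letters CAGCTG and CAGATG, forms of the E-box that Atoh1 and related factors are known to bind, on both strands. RefSeq windows (GRCm38.p6) of 250 bases before to 50 after the start were at hand for 16 of the 20 genes, and 4 held CAGCTG and 2 CAGATG. Of 253 windows matched among the 345 genes higher in Merkel cells, 22.5% held CAGCTG and 15.02% CAGATG, against 16.1% and 17.2% of all 27025 promoters. Either form was held by 34.8% of the 253 and by 30.4% of all promoters. Whether these shares differ was not tested. A match is a description and not a site of binding. The following stretches around CAGCTG are shown because they belong to genes that set Merkel cells apart, each read 5′ to 3′ on the gene's strand with the E-box letters in capitals. The match starts 142, 31 and 7 bases before the start of Ccer2 (chr7:28756020-28756049, plus), Hepacam2 (chr6:3494512-3494541, minus) and Dll3 (chr7:28301775-28301804, minus).
Ccer2: tagagtgccccaCAGCTGtcccctctccct
Hepacam2: caaataaaccagCAGCTGctggtccatgaa
Dll3: tccggcatccagCAGCTGcgactcctgaga

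Endothelial and immune markers were largely at 0 in Merkel cells, while basal, fibroblast and hair germ markers were not. Over all 69 cells, 4 of 5 endothelial markers including Pecam1, 4 of 5 immune markers including Ptprc, 3 of 5 muscle markers including Myod1 and 2 of 5 melanocyte markers gave no UMI. Of the Schwann markers reported here Sox10 and Foxd3 were at 0, and the receptor gene Erbb3 gave 54 UMIs. Erbb3 was at 115 and 63.5 CPM in E15.5 controls and at 34.9 and 51.1 CPM at E17.5, against 28.0 to 34.9 CPM in other epithelial cells. Of 7 suprabasal, 6 hair germ, 5 erythroid and 5 neuron markers, 1 each was at 0, and of 7 fibroblast and 9 basal markers none. Krt17 of the hair germ list gave 577 UMIs. The periderm keratins Krt4, Krt6b and Krt13 were also at 0, and Krt7, which that list shares with the simple keratins, gave 436 UMIs. Of the 5 neuron markers, Elavl3, Elavl4 and Avil were higher in Merkel cells than in other epithelial cells, and Prph was at 0. Summed over the 7 fibroblast markers, 2 of which the rule limits, Merkel cells held from 0 to 812 CPM per library. Summed over the 9 basal keratinocyte markers, they held from 0 to 5784 CPM against 6918 to 24224 CPM in other epithelial cells. Of these 9, Krt5 and Krt14 define the other epithelial cells, so that part of this gap was set by the choice of cells.

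A few Merkel cells carried basal keratins. At least 10 UMIs of Krt5 and Krt14 were found in 1 of 7 cells of E15.5 control 2, in the cell of MOF cKO 6, in 2 of 7 cells of the E17.5 control and in 2 of 44 QPC cKO cells. The cell of MOF cKO 6 held 28872 UMIs with 78 of Krt5, 47 of Krt14 and 215 of Krt17. Scrublet, a caller of doublets, marked none of the 69 cells, but it marked only 0.336% and 0.343% of cells at E17.5 and is taken not to have worked there. The part of doublets in these cells was not tested.

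Stage was compared between the 2 E15.5 control libraries and the 2 E17.5 libraries, which differ in genotype. Merkel cells of E17.5 carried more of the transcription factor gene Insm1 and of the glycolytic enzyme genes Aldoa, Eno1 and Ldha. These were above the minimum on low counts in at least 1 library of each stage. Krt20 and the granule genes Cpe, Chga and Penk were also called higher, and Mdk, a growth factor gene, and Ccnd2, a cyclin gene, lower, but each of these entered the test only through the stage where it was high. In the edgeR quasi-likelihood test on summed counts, 88 of 1665 genes (5.29%) passed a Benjamini-Hochberg adjusted p of 0.05, with 63 (3.78%) higher and 25 (1.5%) lower at E17.5. Without QPC cKO 236 were called, 115 higher and 121 lower, so that the excess of rises was not seen. DESeq2 called 66, of which 56 were shared. Only the most abundant genes could be tested, since the E15.5 libraries held 7 and 9 cells, with a minimum of 103.5 CPM in 2 libraries. Of the genes tested, 1369 were above it in at least 1 library of each stage, and 25 of these were called higher and 13 lower. A further 191 passed through E17.5 alone, with 38 higher and 0 lower, and 105 through E15.5 alone, with 0 higher and 12 lower, so that the direction of these calls was set by the minimum. The p-values measure the spread between 2 libraries of a stage.

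Of the granule genes Cpe, Chga and Penk rose with stage. Cpe, which trims prohormones, was counted at 14.4 and 25.4 CPM at E15.5, at 1170 CPM in the E17.5 control and at 528 CPM in QPC cKO, a log2 change of 5.34 ± 0.65 (SE, edgeR adjusted p = 0.00175). Chga, the granule protein chromogranin A, was at 57.7 and 38.1 CPM at E15.5 and at 804 and 489 CPM at E17.5, a log2 change of 3.76 ± 0.47 (SE, edgeR adjusted p = 0.00208). Penk, the precursor of enkephalin, went from 57.7 and 88.9 CPM to 576 and 281 CPM (log2 change 2.48, edgeR adjusted p = 0.0222). Each of the 3 was higher in the control than in QPC cKO at E17.5. All 3, and the fourth granule gene tested, Cck, passed the minimum through E17.5 alone, as did the vesicle genes Vamp2, Rab3c and Syt1, which were called higher, so that their number is a description of the genes that entered. The vesicle genes Snap25, Pclo and Syt7, above the minimum at both stages, did not pass (edgeR adjusted p = 0.884, 0.658 and 0.167). With no minimum, 201 of 13365 genes (1.5%) were called, 153 higher and 48 lower. The median log2 change of all these genes was 0.59, so that the whole fit leaned to rises. Of 14 granule genes 4 were higher and 0 lower, and of 17 vesicle genes 5 were higher and 0 lower.

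Krt20, the keratin of mature Merkel cells (GRCm38, chr11:99428403-99438150, minus strand), was at 43.3 and 25.4 CPM at E15.5, at 716 CPM in the E17.5 control and at 224 CPM in QPC cKO, a log2 change of 3.69 ± 0.76 (SE, edgeR adjusted p = 0.0234). It was detected in 1 of 7 and 1 of 9 cells at E15.5, in 7 of 7 cells of the E17.5 control and in 24 of 44 cells of QPC cKO. After thinning each cell to 4000 UMIs these were 1 of 7, 1 of 9, 7 of 7 and 15 of 44, and at most 0.116% of fibroblasts in a library held a Krt20 UMI. Of the transcription factors, Insm1, which drives neuroendocrine differentiation, rose from 390 and 279 CPM to 1354 CPM in the control and 958 CPM in QPC cKO (log2 change 1.82, edgeR adjusted p = 0.0181). Of the 4 that could be tested it was the only one called, while Pou4f3, Sox2 and Prox1 had log2 changes of -0.24, 0.25 and -0.47 (edgeR adjusted p = 0.706, 0.658 and 0.465).

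Among further genes, Ntf3, the neurotrophin NT-3, went from 28.9 and 25.4 CPM to 227 and 253 CPM (log2 change 3.20, edgeR adjusted p = 0.00704), and the adhesion gene Ncam1 from 72.1 and 25.4 CPM to 218 and 200 CPM (log2 change 2.16, edgeR adjusted p = 0.0364). Atp1b1, a subunit of the sodium pump, went from 28.9 and 12.7 CPM to 472 and 362 CPM (log2 change 4.34, edgeR adjusted p = 0.00175). Avil, an actin regulator of sensory cells, went from 57.7 and 50.8 CPM to 498 and 304 CPM (log2 change 2.86, edgeR adjusted p = 0.00891). Of these 4 genes, Ntf3 was the only one not higher in the E17.5 control than in QPC cKO. These 4 also passed the minimum through E17.5 alone. Of 9 glycolysis genes above the minimum at both stages, Aldoa, Eno1 and Ldha were higher and 0 lower. Over all 1369 genes above it at both stages, 25 were higher and 13 lower. Aldoa went from 159 and 292 CPM to 1799 and 837 CPM (log2 change 2.54, edgeR adjusted p = 0.0161). Eno1 went from 115 and 50.8 CPM to 480 and 279 CPM (2.19, edgeR adjusted p = 0.0302), and Ldha from 101 and 114 CPM to 742 and 291 CPM (2.20, edgeR adjusted p = 0.0406). Eno1 in E15.5 control 3 and Ldha in E15.5 control 2 lay under the minimum of 103.5 CPM. Each of the 3 glycolysis genes was higher in the E17.5 control than in QPC cKO.

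Of the 10 named rises with the largest fitted change, 5 had no UMI in the 16 Merkel cells of the E15.5 controls. Each of the 10 passed the minimum on low counts through E17.5 alone, so that its direction was set by the minimum. Set against 3 counts over both E15.5 libraries (20.3 CPM), and taking the mean of the E17.5 libraries, Sncg (gamma-synuclein) was at least 15.7-fold higher at E17.5 and Aspa, an aspartoacylase, at least 13.0-fold higher. Kcnv1, a potassium channel subunit, was at least 9.94-fold higher, Tmem213 at least 6.32-fold and the desmosomal cadherin Dsc2 at least 6.28-fold. Against QPC cKO alone, the lower of the E17.5 libraries, the bounds were 8.19-fold for Sncg, 6.58-fold for Aspa and 6.09-fold for Kcnv1. The other 5 were Cpe, Atp1b1, Chga, Inpp5a and Mfge8. Sncg was counted at 472 CPM in the E17.5 control and 166 CPM in QPC cKO, and Tmem213 at 140 and 116 CPM.

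Each of the 10 named falls passed the minimum on low counts through E15.5 alone, so that its direction was set by the minimum. They held Xist, 4 haemoglobin genes, which have near-identical copies, Gm8797 and AY036118. Except for Ccnd2, the named falls were also lower in CPM at E17.5 in other epithelial cells, with edgeR adjusted p-values of 0.00894 or less. The others were Mdk, Zc3h12c and Ccnd2. Mdk, the growth factor midkine, was at 404 and 394 CPM at E15.5 and at 0 and 34.1 CPM at E17.5, a log2 change of -3.79 ± 0.53 (SE, edgeR adjusted p = 0.00364). Zc3h12c, an RNA-binding zinc finger gene, fell from 375 and 432 CPM to 26.2 and 39.7 CPM (log2 change -3.38, edgeR adjusted p = 0.00112). The cyclin gene Ccnd2 fell from 303 and 267 CPM to 26.2 and 75.2 CPM (log2 change -2.12, edgeR adjusted p = 0.0241). In other epithelial cells Ccnd2 was at 771 and 740 CPM at E15.5 and at 784 and 731 CPM at E17.5, so that its CPM did not fall, while the change fitted with TMM scaling was -0.36 (edgeR adjusted p = 0.0207). Of 19 tested genes of respiratory complexes I, IV and V, all above the minimum at both stages, Ndufa4 was lower and none higher. Over all 1369 genes above it at both stages, 13 were lower and 25 higher. None of 10 complex III genes or 11 mitochondrially encoded genes was called.

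**Figure D3:**
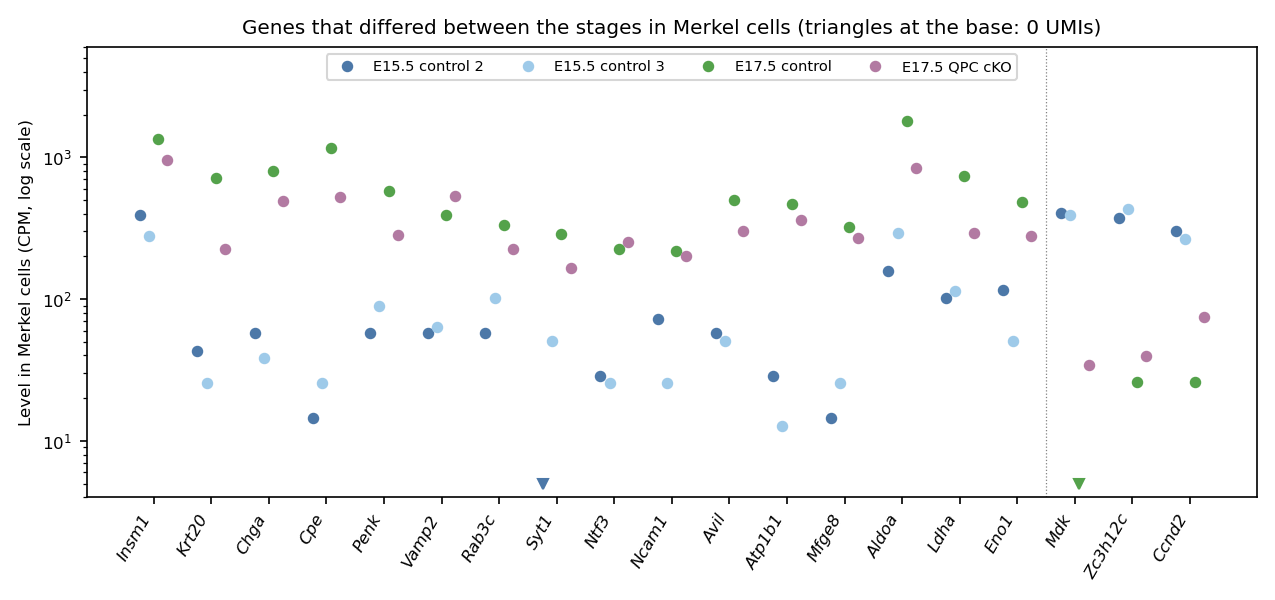
Level in Merkel cells (CPM, log scale) of genes that passed the stage test, 1 point per library. To the left of the dotted line the E17.5 libraries lie above those of E15.5 for every gene shown, as for Cpe with 14.4 and 25.4 against 1170 and 528 CPM, and to the right below. The genes were chosen by their calls, so this separation is not a further result.

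The stage difference in Merkel cells was also set against that in other epithelial cells of the same 4 libraries, as an interaction in 1 fit with the library as a block. Of 13834 genes, 102 (0.737%) passed, 63 (0.455%) higher and 39 (0.282%) lower in Merkel cells, and 27 of them were also called in the stage test. Atp1b1 rose in Merkel cells and was at 8.98, 10.4, 6.05 and 7.56 CPM in other epithelial cells, an interaction of 5.21 ± 0.63 (log2, SE, edgeR adjusted p = 2.26e-12). For Cpe the interaction was 4.28 (edgeR adjusted p = 6.61e-08), for Ntf3 2.98 (0.00453) and for Penk 2.16 (0.00429). Aldoa and Ldha, of glycolysis, rose more in Merkel cells by 2.36 (edgeR adjusted p = 1.57e-06) and 2.17 (0.0008), and Mdk fell more by 2.16 (0.00779). Of the other stage rises named in the text, Chga (edgeR adjusted p = 0.189), Vamp2 (0.071), Ncam1 (0.11), Eno1 (0.531), Avil (0.697), Dsc2 (0.131), Inpp5a (0.172), Aspa (0.385), Kcnv1 (0.387) and Insm1, Rab3c and Syt1 (1 each) did not pass the interaction. 2 transcription factors without a call in the stage test passed the interaction, in opposite directions, Pou4f3 with 1.74 (edgeR adjusted p = 0.01) and Sox2 with -1.52 (0.017). In other epithelial cells Pou4f3 was at 1.87 and 1.24 CPM at E15.5 and 0.119 and 0.993 CPM at E17.5, and Sox2 at 1.09 and 0.553 CPM and then 3.08 and 3.70 CPM, so that both interactions rest on low levels there. Vamp2 also rose in other epithelial cells (log2 1.18, edgeR adjusted p = 0.00364). Krt20 was not called (interaction -1.77, edgeR adjusted p = 0.907), and it gave no UMI in other epithelial cells of 3 of the 4 libraries.

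On the other side, Dll1, a Notch ligand, was at 28.9 and 88.9 CPM in Merkel cells at E15.5 and at 0 and 2.84 CPM at E17.5, while other epithelial cells held 26.7 and 35.5 CPM at E17.5 (interaction -5.27, edgeR adjusted p = 0.00371). Col4a2, a basement membrane collagen, showed the same pattern with 72.1 and 178 CPM and then 8.73 and 4.26 CPM in Merkel cells (interaction -4.82, edgeR adjusted p = 1.57e-06). These calls depend on the scaling and on each E17.5 library. With library sizes alone 26 were higher and 72 lower, as the median of all genes moved from 0.39 to -0.00 (log2), and without the E17.5 control or without QPC cKO no gene passed, with 706 and 613 at an unadjusted p under 0.05.

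MOF cKO gave 1 Merkel cell per library, so its cells are described without a test. The cell of MOF cKO 5 had 11868 UMIs, with 4 of Atoh1, 0 of Isl1, 35 of Krt8, 12 of Pou4f3, 9 of Sox2, 2 of Insm1 and 149 of Ccer2. The cell of MOF cKO 6 had 6 UMIs of Atoh1, 17 of Isl1, 40 of Krt8, 8 of Pou4f3, 9 of Sox2, 5 of Insm1 and 277 of Ccer2, beside the basal keratins given above, and whether it had lost MOF was not tested. Both thus held Pou4f3, Sox2, Insm1 and Ccer2, none of which the rule used. Ccer2 was at 12555 and 9594 CPM in these cells, and at 22683 and 22869 CPM in the sums over 7 and 9 cells of the E15.5 controls. Single cells of those controls held from 66 to 377 and from 105 to 269 Ccer2 UMIs, so 1 cell per library does not show a lower level. Krt20 was at 0 in both MOF cKO cells. The p53 target Cdkn1a gave 3 and 10 UMIs.

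QPC cKO and control Merkel cells of E17.5 were compared as 1 library each, by exact Poisson intervals of the summed counts. Krt20, 3 of 6 granule genes and 3 of 11 glycolysis genes were lower in QPC cKO. Krt20, 1 granule gene and 2 glycolysis genes remained so under TMM scaling. The amino acid stress genes Asns, Mthfd2 and Atf5 were higher, and they reached the minimum of UMIs only through QPC cKO, where they were high. A gene was called where it had at least 30 UMIs in either library, intervals that did not overlap and a ratio past 2-fold. Of 3694 genes with 30 UMIs, 171 (4.63%) were called, of which 69 (1.87%) were higher and 102 (2.76%) lower. Scaling by TMM factors moved the median log2 ratio of these genes from -0.02 to 0.22 and gave 159 higher and 51 lower, with the same 69 higher and 51 of the 102 lower. Leaving out, gene by gene, the cell with the most UMIs in the higher library, which by construction lowers that level, left 47 of the 69 and 37 of the 102 called. Intervals cover counting error and not the spread between embryos.

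Of 14 genes of the integrated stress response, 7 had 30 UMIs in either library, each only through QPC cKO, whose summed counts were deeper. Since these 7 passed through that library alone, their count is given only as a description, with 3 called higher and 0 lower. Atf5, a transcription factor of this response, was at 34.9 CPM (9.52 to 89.5) in control and 342 CPM (300 to 388) in QPC cKO. Asns, asparagine synthetase, was at 26.2 CPM (5.40 to 76.6) and 166 CPM (137 to 199). Mthfd2, a mitochondrial folate enzyme, gave 0 UMIs in control and 122 CPM (97.6 to 151) in QPC cKO, at least 4.66-fold higher against 3 counts in the control. All 3 stayed called without the cell with the highest count of the gene. That cell held 27 of 241 UMIs for Atf5, 13 of 117 for Asns and 9 of 86 for Mthfd2. In other epithelial cells Atf5 went from 39.7 to 218 CPM, Asns from 39.7 to 111 CPM and Mthfd2 from 16.9 to 75.5 CPM, and in fibroblasts the 3 had log2 ratios of -0.34, -0.46 and 0.01.

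All 11 glycolysis genes with 30 UMIs lay below the control, with a median log2 ratio of -0.91 (-0.67 under TMM scaling). Of all 3694 genes with 30 UMIs, 1880 lay below the control. Of the 11 glycolysis genes 3 were called lower, Aldoa, Ldha and Pgk1. Ldha, lactate dehydrogenase A, was at 742 CPM (593 to 918) in control and 291 CPM (252 to 334) in QPC cKO, and Pgk1 at 314 CPM (220 to 435) and 125 CPM (100 to 154). Both remained called under TMM scaling, whereas Aldoa, at 1799 and 837 CPM, did not, and without 1 control cell its ratio was 1.98. The same 11 genes had a median log2 ratio of -0.69 in other epithelial cells. Among respiratory genes 0 were called of 9 complex III genes, of 20 genes of complexes I, IV and V and of 12 mitochondrially encoded genes. Their median log2 ratios were -0.14, -0.13 and 0.09, with 8, 14 and 4 genes below the control. Under TMM scaling the medians were 0.10, 0.11 and 0.32, so that those of complex III and of complexes I, IV and V changed sign. The deleted gene Uqcrq, with 11 UMIs in control and 8 in QPC cKO, was under the minimum of 30 and is not among the 9.

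Krt20 and some granule genes were lower in QPC cKO, while the transcription factors were not called. Krt20 was at 716 CPM (570 to 889) in control and 224 CPM (191 to 262) in QPC cKO, a 3.20-fold lower level. Of 6 granule genes Cpe, Penk and Cck were called lower, and of these only Cck remained called under TMM scaling. Cpe was at 1170 CPM (981 to 1386) and 528 CPM (476 to 584). Of the 35 Cck UMIs of the control 23 came from 1 cell, without which the ratio was 1.08 and the call was lost, and without 1 control cell Penk was at 1.93-fold and lost its call too. Of the 80 Cck UMIs in QPC cKO, 27 came from 1 cell. Of 15 vesicle genes, Rab3b was lower and Cplx1 higher, and 12 lay below the control, and Rab3b lost its call under TMM scaling and, like Cplx1, without 1 cell. None of the 5 transcription factors outside the rule was called, but 4 of the 5 lay below the control, with a median log2 ratio of -0.77. Insm1 was at 1354 and 958 CPM, Pou4f3 at 1275 and 749 CPM and Sox2 at 699 and 868 CPM. Of the genes the rule used, Atoh1 was at 655 and 1192 CPM and Isl1 at 1546 and 1222 CPM.

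**Figure D4:**
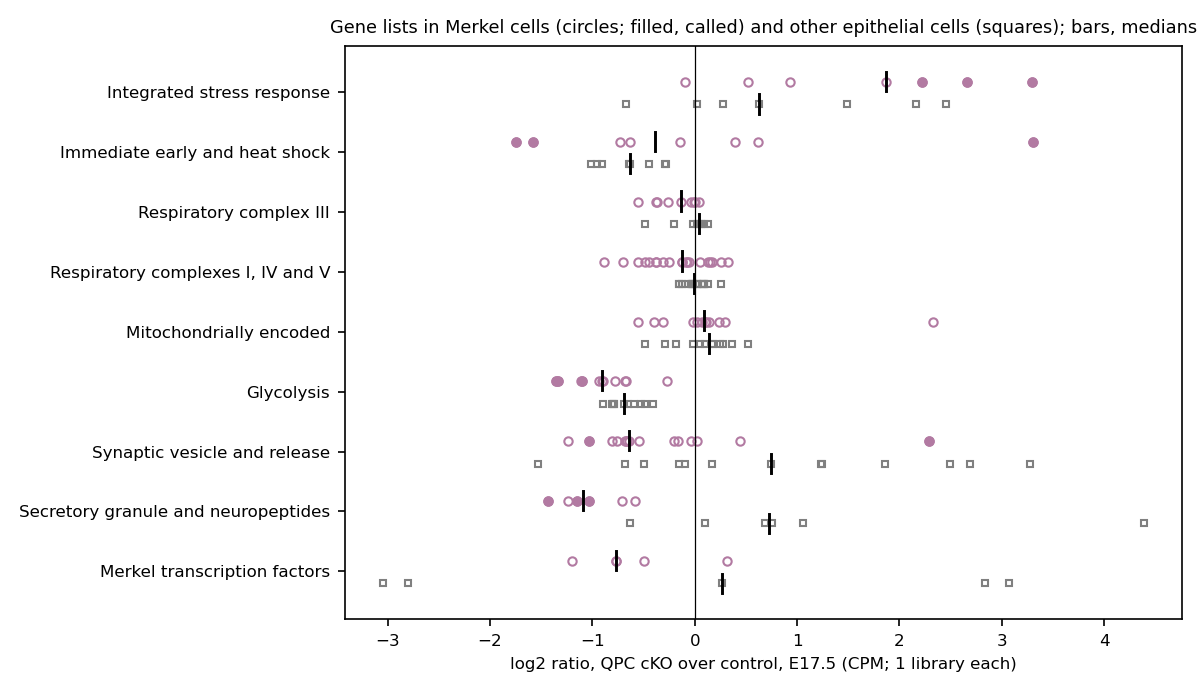
Log2 ratio of QPC cKO over control at E17.5 (CPM, 1 library each) for listed genes with at least 30 UMIs in Merkel cells of either library, in Merkel cells (circles, filled where called) and other epithelial cells (squares), with medians as bars. Glycolysis has a median of -0.91 in Merkel cells. The genes shown for the integrated stress response passed the minimum of 30 UMIs only through QPC cKO, so their median is not read. Mthfd2, with 0 control UMIs, is drawn at its bound.

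The 10 called rises with the largest ratio were Gadd45g, Fst, Kif19a, Slc7a5, Nnat, Egr1, Atf5, Eea1, Dnttip2 and Sfrp2. The ratios ran from 7.63-fold at Sfrp2 to 13.3-fold at Gadd45g, each resting on 1 to 5 control UMIs. All 10 reached the minimum of UMIs only through QPC cKO, where they were high. Their direction was thus set by the minimum, and the ratios and their order are given only as a description. Without the cell with the most UMIs of the gene Eea1, Dnttip2 and Sfrp2 lost their calls, and 27 of the 47 Sfrp2 UMIs came from that cell. Gadd45g, a growth arrest gene, rests on 1 control UMI, with 8.73 CPM (0.221 to 48.7) in control and 116 CPM (92.5 to 144) in QPC cKO, and E15.5 controls held 115 and 152 CPM. Fst, the activin inhibitor follistatin, gave 2 UMIs in control and 221 CPM in QPC cKO, with 101 and 229 CPM at E15.5. Egr1, an immediate early gene, was at 43.7 and 433 CPM, with 779 and 863 CPM at E15.5, and Hes6, a Notch-related repressor, at 122 and 489 CPM, with 577 and 724 CPM at E15.5. In each of these 4 the E17.5 control stood below the 3 other libraries, and its place below QPC cKO was fixed by the call. How many of the called genes show this pattern was not counted.

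The 10 largest called falls were Limch1, Mllt3, Peg3, Cenpx, Caln1, Idi1, Bex4, Krt10, Fosb and Celf4. Limch1, an actin-binding gene, was at 245 CPM (163 to 353) in control and 46.8 CPM (32.2 to 65.8) in QPC cKO, with 28.9 and 12.7 CPM at E15.5. Caln1, a calcium-binding protein gene, was at 262 and 72.4 CPM, with 0 and 38.1 CPM at E15.5. Bex4 was at 157 and 45.4 CPM, with 57.7 and 25.4 CPM at E15.5. Krt10 and Bex4 lost their calls without 1 control cell. For Limch1, Caln1 and Bex4 the E17.5 control stood above the other 3 libraries, and its place above QPC cKO was fixed by the call. Fosb, of the same 10, did not show this, with 721 CPM in E15.5 control 2 and 419 CPM in the E17.5 control. How many of the called falls show the pattern was not counted. These comparisons and the stage test share the E17.5 control library.

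Merkel cells of QPC cKO varied among themselves. In the E17.5 control 7 of 7 cells held both Krt20 and Chga. In QPC cKO 21 of 44 held both, 14 Chga without Krt20, 3 Krt20 without Chga and 6 neither. In the E15.5 controls, 5 of 7 and 5 of 9 cells held neither. At most 0.289% of fibroblasts and 0.378% of other epithelial cells in these 4 libraries held a Chga UMI, at median depths of 11406 to 21896 and of 15566 to 25530 UMIs per cell. Krt20 ran from 4 to 25 UMIs per cell in the E17.5 control, with a median of 12, and from 0 to 23 in QPC cKO, with a median of 1.5. Depth ran from 13504 to 18044 UMIs per cell in the control and from 5240 to 25182 in QPC cKO, so that a count of 0 in a single cell does not show absence.

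Some QPC cKO cells stood apart. At least 10 UMIs of Krt17, a keratin of hair follicle and stressed epidermis, were found in 5 of 44 cells, and 1 of them held 108 of the 280 Krt17 UMIs of the library, where Krt17 was called higher (148 CPM in control, 397 CPM in QPC cKO). Without that cell Krt17 was at 249 CPM (213 to 289), 1.67-fold the control, and was not called. A single cell held 15 UMIs of the proliferation marker Mki67, the other 43 none. No UMI of Isl1 was counted in 2 of the 44 cells, and none of Pou4f3 in 1.

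**Figure D5:**
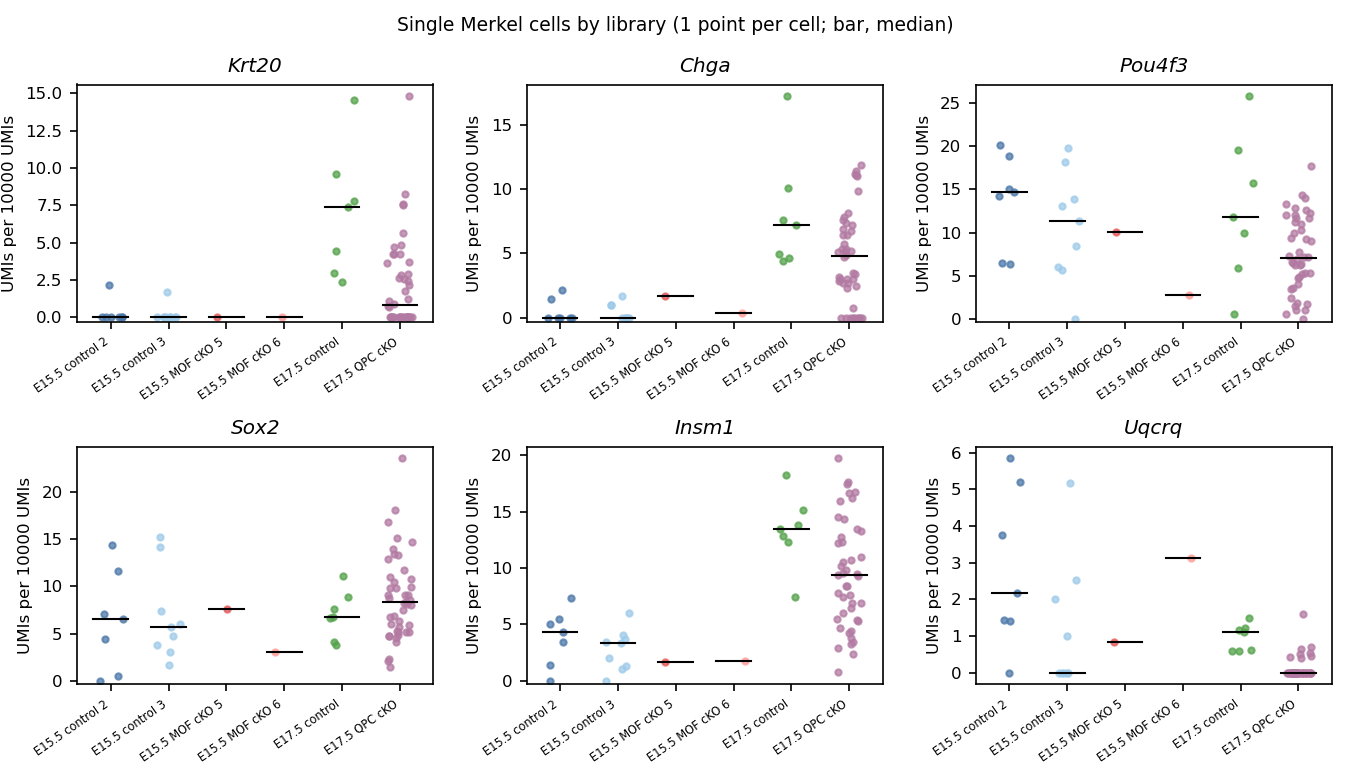
UMIs per 10000 UMIs in single Merkel cells by library, 1 point per cell with the median as a bar, for Krt20, Chga, Pou4f3, Sox2, Insm1 and Uqcrq. Krt20 and Chga are found in 7 of 7 E17.5 control cells, while 20 of the 44 QPC cKO cells gave no UMI of Krt20 and 36 of 44 none of Uqcrq.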

How the data were processed

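Cells came from 10x Genomics 3′ libraries of total dorsal skin. The authors ran Cell Ranger on mm10, and the deposited matrices hold raw UMI counts per gene and barcode, without normalization. The file headers of E15.5 and E17.5 name version 6.1.2, and the submitters' processing notes also list 1.3.1. The methods give v3 chemistry for E17.5 and v2 or v3 for the others. Counts of Merkel and of other epithelial cells were summed per library, so that libraries and not cells were the replicates. Stage was tested with edgeR 4.0.16 (filterByExpr, TMM, quasi-likelihood) in R 4.3.3, with DESeq2 1.42.0 as an alternative, and genes used to choose cells were left out of the adjustment. The interaction with other epithelial cells had the library as a block. In simulated counts with 4-fold changes the stage test recovered 21 of the 34 changed genes that passed the filter on low counts, with 1 false call of 22. The interaction recovered 14 of 187 such genes with 0 false of 14. Changed genes that the filter removed are not in these totals, so recovery over all changed genes was lower. A library needed 5 Merkel cells, lowered from 10 once the member counts were known. MOF cKO libraries therefore entered no gene test. Share differences were tested by exact permutation of libraries (SciPy 1.17.1, Python 3.11.15). Ratios between cell types used log2(CPM + 10). With 1 library a group, exact Poisson intervals replaced a test. Intervals are 95% and a count of 0 was read as at most 3 counts. Genes named are list genes and, per comparison, the 20 highest and 10 lowest ratios or the 10 largest called rises and falls, with a mean of 50 CPM except between the E17.5 libraries. Doublets were called with Scrublet in scanpy 1.11.5 and left out in an alternative. Gene coordinates are from GENCODE vM21. The Merkel cell rule, the gene lists and the tests were chosen with earlier results of these data known. Where nothing says that libraries came from separate litters, p-values measure the spread between libraries, which may be technical.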

Additional observations from a re-analysis of the deposited data

Results flagged for a closer look

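The stage difference of 20 genes differed between Merkel cells and other epithelial cells by the interaction test in edgeR (adjusted p under 0.05), on the log2 scale. These are the 10 largest called rises and the 10 largest called falls in Merkel cells relative to other epithelial cells. The rises were Tmem213 at 17.87, Cntn2 at 16.54, Nrn1 at 13.96, Sncg at 13.81, Ythdf3 at 12.88, Gpc3 at 12.86, Hba-a2 at 5.93, Atp1b1 at 5.21, Ina at 4.96 and 1500009L16Rik at 4.39. Values above 10 rest on groups at or near 0 counts and are no measure of size. Some smaller values rest on low counts too, such as those of Dll1, given above, and of Hba-a2, with 1 and 2 UMIs in Merkel cells of the E17.5 control and QPC cKO. Hba-a2 fell with stage in Merkel cells (log2 -6.11) and in other epithelial cells (log2 -11.94), so that its positive value is a smaller fall. The falls were Klk7 at -7.78, Dll1 at -5.27, Col4a2 at -4.82, Gpx2 at -4.59, Mfap4 at -3.16, Mycl at -3.04, Nrcam at -2.97, H2-T23 at -2.94, Gja1 at -2.93 and Rbm24 at -2.92. No gene passed without the E17.5 control or without QPC cKO.

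Outside the kept cells, 14 barcodes of the QPC cKO library met the marker rule but not the filter on cells, against 1 in its control. Over all barcodes the rule held for 58 in QPC cKO and 8 in the control.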

How the results depend on the processing

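Merkel cells were few, and the limits of each result follow from that. The share difference at E17.5 was 0.588 percentage points, 0.0914 with a mitochondrial limit of 5% and 3.60 as a share of epithelial cells. At E15.5 the difference was -0.0814, -0.0100 with the 5% limit, and ran from -0.0891 to -0.0738 when 1 library was left out. The stage test called 88 genes, 201 without a filter on low counts (counts over gene lists without it were added after seeing the data), and from 116 to 236 with 1 library left out, where 153 were called without the E17.5 control and 236 without QPC cKO (115 higher and 121 lower, against 63 and 25). The interaction called 102 genes, 33 with DESeq2, 54 without Merkel cells that carry basal keratins (chosen after seeing the data), and from 0 to 37 with 1 library left out, where each of the 4 libraries lowered the count: 37 and 31 without E15.5 control 2 and 3, and 0 without either E17.5 library. Merkel against other epithelial cells gave 754 genes, 1843 with a pseudocount of 1, 217 with a pseudocount of 50, 500 with a mean of 50 CPM, and from 887 to 1087 with 1 library left out. QPC cKO against control gave 171 genes, 57 with 100 UMIs in either library, and 84 without the cell that held the most UMIs of each gene (chosen after seeing the data), which lowers the higher level by construction. The share of QPC cKO cells with a Krt20 UMI was 54.5%, and 34.1% after thinning to 4000 UMIs (chosen after seeing the data). Rbm24 changed direction to 0.12 with 30 basal keratin UMIs in other epithelial cells. The causes were not tested. Of the named genes' values under alternatives, 202 kept their call and 4 lost it in the stage test, and 129 kept it and 110 lost it in the interaction. The interaction kept the library as a block throughout. No paired analysis was possible because, between groups, the E15.5 labels share no replicate number, E17.5 has 1 library a group, and the E16.5 libraries entered no fit.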
